A study of Mus musculus with 6 samples.

Results

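The VEGF family is described here by its 10 genes, chosen by name among the 24521 genes of the deposited normalized table: 5 ligands (Vegfa, Vegfb, Vegfc, Vegfd and Pgf), 3 receptor tyrosine kinases (Kdr, Flt1 and Flt4) and 2 neuropilins (Nrp1 and Nrp2). All 10 passed the filter on low counts and were among the 19042 genes tested. RNA was extracted from whole lungs that were dissected, before they had filled with air, from mouse embryos at E18.5, just before birth. The 3 control lungs are labelled wild type, and the other 3 Mll3FDC/FDC (Mll3 KO), homozygous for an allele of Kmt2c, the gene of the histone methyltransferase MLL3. The labels name no Cre or treatment and do not say which piece of Kmt2c the allele lacks. They do not say whether the lungs of a genotype came from separate litters either, so the p-values rest on the spread among these 6 samples.

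VEGF ligands are secreted dimers that bind receptor tyrosine kinases on endothelial cells. VEGF-A acts mainly through VEGFR2, the product of Kdr, and drives the growth and survival of blood vessels. VEGFR1, the product of Flt1, binds VEGF-A tightly but signals weakly and also exists as a soluble form that holds the ligand back. VEGF-C and VEGF-D act through VEGFR3, the product of Flt4, on lymphatic vessels, while neuropilins serve as co-receptors for VEGFs and for class 3 semaphorins. In the developing lung, alveolar type 1 cells are a main source of VEGF-A, and the Car4-positive capillary cells that lie against them carry much VEGFR2.

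The RefSeq promoters of the 4 members whose knockout libraries all lay below the wild-type libraries are shown first (GRCm38.p6, the same build as mm10). Each runs 5′ to 3′ on the gene's strand and ends at or just before the gene start in the count table. Capitals mark, on either strand, the GC box GGGCGG, the TATA box TATAAA, and the core GCGTG and its variant, written ACGTG, of the element bound by hypoxia-inducible factors.

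Nrp2, chr1:62703067-62703284, plus strand: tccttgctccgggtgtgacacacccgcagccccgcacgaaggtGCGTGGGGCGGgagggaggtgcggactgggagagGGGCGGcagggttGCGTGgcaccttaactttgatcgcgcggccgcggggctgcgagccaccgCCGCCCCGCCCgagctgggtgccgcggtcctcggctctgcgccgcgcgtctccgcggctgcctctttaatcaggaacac

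Vegfa, chr17:46032378-46032627, minus strand: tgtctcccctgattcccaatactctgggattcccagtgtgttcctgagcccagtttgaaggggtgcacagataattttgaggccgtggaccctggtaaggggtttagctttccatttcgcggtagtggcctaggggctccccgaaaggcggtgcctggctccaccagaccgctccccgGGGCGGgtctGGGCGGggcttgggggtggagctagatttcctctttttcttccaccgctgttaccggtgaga

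Kdr, chr5:75978459-75978705, minus strand: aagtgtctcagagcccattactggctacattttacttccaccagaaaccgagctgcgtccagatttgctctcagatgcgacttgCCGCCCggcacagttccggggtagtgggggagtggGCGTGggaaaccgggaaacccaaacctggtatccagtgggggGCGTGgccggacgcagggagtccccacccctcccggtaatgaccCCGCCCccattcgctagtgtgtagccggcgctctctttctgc

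Flt1, chr5:147726012-147726261, minus strand: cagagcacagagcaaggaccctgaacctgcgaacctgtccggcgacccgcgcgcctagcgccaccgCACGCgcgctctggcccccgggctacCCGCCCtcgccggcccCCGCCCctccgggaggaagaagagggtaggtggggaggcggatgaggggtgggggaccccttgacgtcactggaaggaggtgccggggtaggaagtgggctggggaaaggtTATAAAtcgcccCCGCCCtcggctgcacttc

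The printed Nrp2 sequence holds 4 GC boxes and 2 GCGTG cores. One core there adjoins a GC box, and another pair of GC boxes shares 1 base, so the capitals run together. The Vegfa sequence holds 2 GC boxes and 0 hypoxia cores. Kdr has 2 GC boxes and 2 GCGTG cores, and Flt1 has 3 GC boxes, 1 GCGTG core and 1 TATA box. Over the 250 bases before each RefSeq start, the 10 genes have 12 windows, since Vegfa and Pgf have a second start. A GC box was in 10 of the 12 windows, against 32.7% of 32851 mouse promoters, and GCGTG was in 7, against 28.2%. ACGTG was in 1 window, that of the internal Vegfa start, against 16.6%, and TATAAA was in 2 (Flt1 and Vegfd), against 12.4%. GC content was 42.4% before Vegfd and 59.2 to 76.4% in the other windows, against a median of 52.4%. A match describes the letters only, and no binding was measured.

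The libraries held 20158689 to 23305306 reads in genes, and the members 53 (Pgf) to 16992 (Vegfa) reads per library. Kmt2c averaged 168 ± 9.58 CPM (SD, n = 3) in the wild-type and 158 ± 14.2 CPM in the knockout libraries; its log2 fold change was −0.09 ± 0.08 (SE, edgeR adjusted p = 0.737), so its total count does not separate the genotypes. Knockout replicate 3 had 59951 Xist reads and 4 reads of 4 Y-linked genes, where the other 5 libraries had 6 to 27 Xist and 7414 to 9300 Y-linked reads. Sample titles begin with 1 of 2 numbers whose meaning is not stated: wild types 1 and 2 and knockout 1 carry the first, and wild type 3 and knockouts 2 and 3 the second. Differences within each title number are given beside the results. Of all genes, 58 were lower and 12 higher in knockout lungs.

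Compared per length, as reads per kilobase after library scaling (RPKM), Vegfa was the most abundant member in wild-type lungs at 174 ± 3.93 RPKM (SD, n = 3), 3.63 times the next, Vegfd (48.0 ± 0.38 RPKM). Kdr followed at 43.9 ± 2.58 RPKM, Nrp1 at 25.9 ± 1.55 RPKM, Nrp2 at 14.8 ± 0.72 RPKM and Vegfb at 12.5 ± 0.68 RPKM. Flt4 (7.76 ± 0.71 RPKM), Flt1 (7.32 ± 0.54 RPKM), Vegfc (5.78 ± 1.00 RPKM) and Pgf (1.04 ± 0.06 RPKM) were lowest. Kdr, the gene of the main receptor through which VEGF-A acts, thus exceeded both other receptor genes in every wild-type library. Flt4 and Flt1 were the only neighbours in this order whose wild-type libraries overlapped. In knockout lungs Nrp2 (10.6 ± 0.81 RPKM) lay below Vegfb (12.97 ± 0.71 RPKM) with no overlap, so this pair stood in the opposite order. Levels were divided by the gene length in the count table (11842 bp for Nrp2, 1605 bp for Vegfb). The order of members close in level depends on these lengths. Flt1 (6.17 ± 0.78 RPKM) there overlapped both Flt4 (7.11 ± 0.81 RPKM) and Vegfc (5.33 ± 0.48 RPKM).

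**Figure D1:**
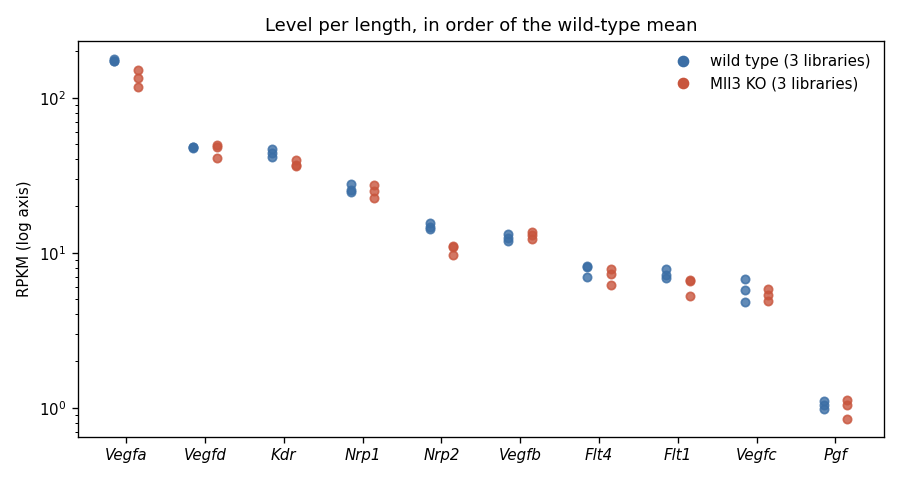
Level per length (RPKM, log axis) of the 10 members, 1 point per library (blue, wild type; red, Mll3 KO), ordered by the wild-type mean. Vegfa lies above all others in both genotypes, and Nrp2 lies above Vegfb in wild-type but below it in knockout lungs.

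Of the 10 members, 1 passed the test between genotypes: Nrp2, which fell in the knockout lungs. edgeR called 0.305% of all genes tested as lower at an adjusted p under 0.05 and 0.063% as higher, and no member was called higher. At an unadjusted p under 0.05, 4 members (Vegfa, Kdr, Flt1 and Nrp2) were lower and 0 higher, against 6.02% of all genes lower. The same 4 had every knockout library below every wild-type library, as did 8.45% of all genes tested. The log2 fold change was negative for 9 of 10 members, with a median of −0.12, against 47.4% of all genes and a median of 0.01. The members are not independent of one another, since they were measured in the same libraries and several are made by the same endothelial cells. They were also chosen with earlier results of these data known, so no test was made over the family.

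**Figure D2:**
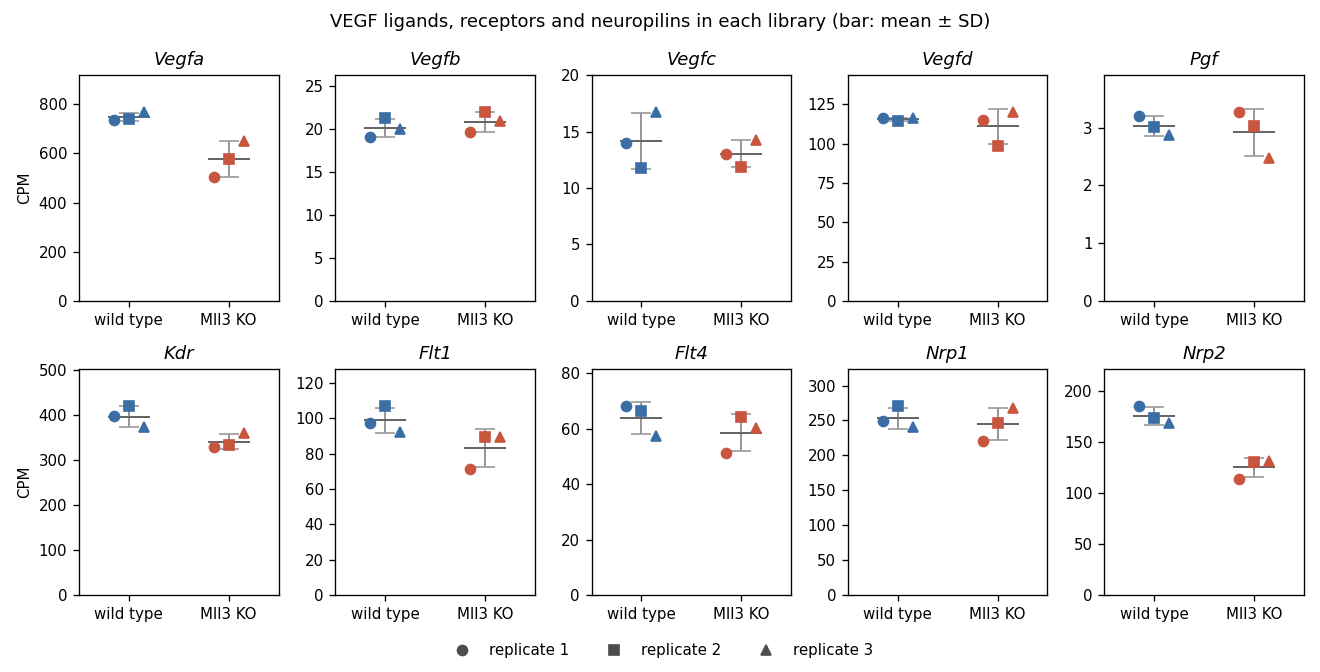
Level (CPM, each axis from 0) of the 10 members in each library, with the mean and SD per genotype; symbols give the replicate. The genotypes do not overlap for Vegfa, Kdr, Flt1 and Nrp2, and knockout replicate 1 is the lowest knockout library for all 3 receptors, both neuropilins and Vegfa.

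Among the ligands, Vegfa, the main growth factor of blood vessels, had 735, 740 and 766 CPM (reads scaled to library size with TMM factors) in the wild-type lungs and 505, 576 and 650 CPM in the knockout lungs. The wild-type libraries lay close together and the knockout libraries were spread out below them. The means were 747 ± 16.8 and 577 ± 72.5 CPM (SD, n = 3), and the log2 fold change was −0.37 ± 0.10 (SE, 95% interval −0.59 to −0.16), which missed the threshold in edgeR's quasi-likelihood test (Benjamini-Hochberg adjusted p = 0.164). DESeq2 gave an adjusted p of 0.00468, edgeR with the title number as a term 0.0317 and edgeR with no filter on low counts 0.00293. In those 3 fits Vegfa and Nrp2 were the members called, where 1.76% (DESeq2), 2.54% (title number) and 0.982% (no filter) of all genes tested were called lower. Within the first title number the log2 difference was −0.55 and within the second it was −0.32. Without knockout replicate 1, the lowest library, the fitted log2 fold change was −0.29 (adjusted p = 0.238).

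Markers of alveolar type 1 cells were measured beside Vegfa. Of the 9 on the list, 3 fell and 0 rose in edgeR, and DESeq2 called 8 lower. The 3 were the membrane glycoprotein gene Pdpn (from 114 to 68.3 CPM), the chloride channel family member Clic5 (from 963 to 646 CPM) and the water channel gene Aqp5 (from 80.0 to 30.1 CPM). Cldn18, a tight junction gene named after its values were seen, was not lower, at 737 against 754 CPM. The list's median log2 fold change was −0.58, its summed level was 4567 to 4997 CPM in the wild-type and 3284 to 3919 CPM in the knockout lungs, and 0 markers were without reads. Relative to that sum, Vegfa had a log2 ratio of −2.68 ± 0.04 in wild-type and −2.63 ± 0.06 in knockout lungs (SD, n = 3), a difference of 0.04 (exact permutation p = 0.3, two-sided; 0.643 after adjustment over 15 ratios). Against the mean of the markers' log2 levels, which weights each marker alike, the difference was 0.26, so Vegfa stood higher relative to the average marker in the knockout lungs. The part of the markers in the Vegfa difference was not tested. In whole lung, fewer cells of a type and less RNA per cell cannot be told apart.

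The other 4 ligands overlapped between genotypes. Their log2 differences within the first and the second title number were −0.04 and 0.10 for Vegfb, 0.02 and −0.36 for Vegfc, −0.0043 and −0.09 for Vegfd, and 0.07 and −0.07 for Pgf, so those of Vegfb, Vegfc and Pgf differed in sign. Vegfb, a ligand of VEGFR1, had 19.1, 21.3 and 19.98 CPM in the wild-type and 19.6, 21.9 and 20.9 CPM in the knockout lungs, with a log2 fold change of 0.05 ± 0.09 (SE, 95% interval −0.15 to 0.25, adjusted p = 0.893). Vegfc, the main lymphatic growth factor, had 14.0, 11.8 and 16.7 CPM against 13.1, 11.9 and 14.2 CPM, a log2 fold change of −0.12 ± 0.14 (−0.43 to 0.19, adjusted p = 0.821). The knockout libraries lay within the wild-type range of Vegfc. Vegfd, a second ligand of VEGFR3 encoded on the X chromosome, had 116, 114 and 116 CPM against 115, 98.6 and 120 CPM (−0.06 ± 0.08, interval −0.22 to 0.11, adjusted p = 0.846). Knockout replicate 2 was the low library there, and knockout replicate 3, the library with Xist reads, was the highest. Pgf, placental growth factor, a ligand of VEGFR1, had 3.21, 3.01 and 2.87 CPM against 3.26, 3.03 and 2.47 CPM (−0.05 ± 0.19, interval −0.47 to 0.37, adjusted p = 0.958). The Pgf counts were 53 to 78 reads per library, and its interval is the widest of the 10.

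**Figure D3:**
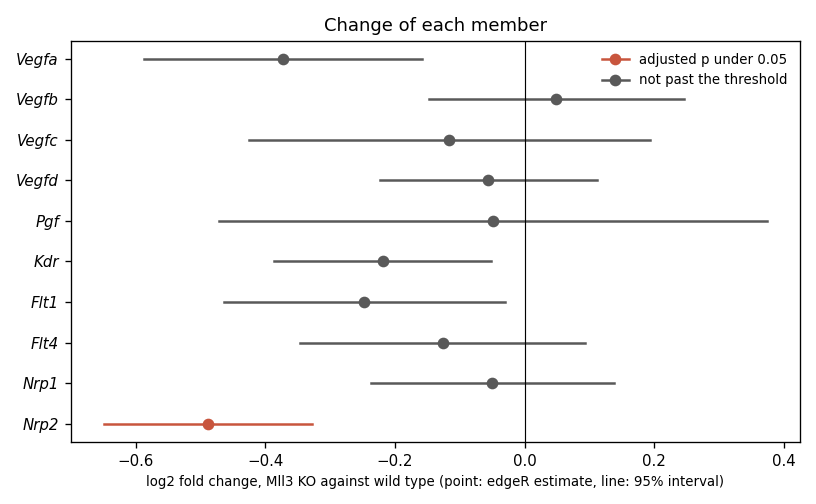
Log2 fold change of each member, Mll3 KO against wild type (point, edgeR estimate; line, 95% interval; red, adjusted p under 0.05). Nrp2 is at −0.49 and is the only member past the threshold. The intervals of Vegfa, Kdr and Flt1 also lie below 0 before adjustment.

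Of the receptors, Kdr had 398, 419 and 372 CPM in the wild-type and 328, 334 and 360 CPM in the knockout lungs. The highest knockout library was just under the lowest wild-type library. The log2 fold change was −0.22 ± 0.08 (SE, 95% interval −0.39 to −0.05, edgeR adjusted p = 0.307), and the within-number differences were −0.32 and −0.10. Flt1, the decoy receptor, had 97.2, 107 and 92.5 CPM against 71.1, 89.5 and 89.3 CPM, a log2 fold change of −0.25 ± 0.10 (−0.46 to −0.03, adjusted p = 0.390). Knockout replicate 1 was far lower in Flt1 than the other 2 knockout libraries, which came close to the wild-type range. Without it the log2 fold change was −0.15, and the within-number differences were −0.52 and −0.05. Flt4, the lymphatic receptor, had 68.1, 66.4 and 57.2 CPM against 51.2, 64.2 and 60.3 CPM (−0.13 ± 0.10, interval −0.35 to 0.09, adjusted p = 0.702). The genotypes overlapped in Flt4, and the difference was −0.39 within the first title number and 0.12 within the second.

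Endothelial markers were measured beside the receptors. Of 16 pan-endothelial markers, 1 fell and 0 rose in edgeR (2 and 0 in DESeq2), at a median log2 fold change of −0.13; their summed level was 3121 to 3572 CPM in the wild-type and 2831 to 3037 CPM in the knockout lungs. The one that fell was Calcrl, the calcitonin receptor-like receptor, from 551 to 370 CPM. This was the largest fall in CPM on the list, so Calcrl carries much of the lower sum. Icam2 and Cldn5, adhesion and tight junction genes of endothelium, had 77.5 against 64.1 CPM and 192 against 164 CPM, without passing the test in edgeR. Cldn5 was the second gene of the list called by DESeq2 (adjusted p = 0.0458). The log2 fold change was negative for 13 of the 16. Tek (114 against 122 CPM), Egfl7 (159 against 168 CPM) and Tie1 (248 against 249 CPM), named after their values were seen, were not lower. Of 9 markers of Car4-positive capillary cells, 1 fell in edgeR and 3 in DESeq2. In edgeR it was Car4, a carbonic anhydrase, from 23.7 to 11.5 CPM. The list's median was −0.32 and its sum 2550 to 2693 against 2012 to 2263 CPM. Emp2, which alveolar type 1 cells also express, had 1245 against 868 CPM (adjusted p = 0.0618), and Kitl, a growth factor gene, 361 against 269 CPM (adjusted p = 0.114). Emp2 was the largest part of the sum and of its fall. Ednrb (191 against 224 CPM), Tbx2 (418 against 435 CPM) and Fibin (95.4 against 95.9 CPM), named after their values were seen, were not lower. The 9 general capillary markers had 0 calls in edgeR and DESeq2, 2 lower at an unadjusted p under 0.05 and a median of −0.13. Of all genes tested, 6.02% were lower at that unadjusted p. Of 7 lymphatic markers 5 were tested, with 0 calls in either tool, 1 lower at an unadjusted p under 0.05, a median of −0.03 and sums of 250 to 281 against 226 to 279 CPM. Ccl21a (65 reads in all) and Mmrn1 (3 reads) were too low to test. No list but that of the endothelial transcription factors held a gene without reads (Etv2).

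Set against the pan-endothelial sum, the 3 receptors overlapped between genotypes. The log2 ratio of Kdr was −3.09 ± 0.02 in wild-type and −3.12 ± 0.06 in knockout lungs (SD, n = 3), a difference of −0.03 (exact permutation p = 0.7). For Flt1 the difference was −0.06 (exact permutation p = 0.8) and for Flt4 0.07 (exact permutation p = 0.7). Against the mean of the markers' log2 levels the differences were −0.08 for Kdr, −0.11 for Flt1 and 0.01 for Flt4. Leaving out knockout 1 turned the difference from the sum to 0.01 for Kdr and 0.06 for Flt1, and leaving out knockout 2 turned that of Flt4 to −0.03. With 3 libraries per genotype the exact test, over 20 assignments, cannot give a p under 0.1, and a large p does not show that the ratios are equal. The ratio of Flt4 to the lymphatic sum differed by −0.08 (exact permutation p = 0.5). Between members, the log2 ratio of Kdr to Flt1 differed by 0.03 (exact permutation p = 0.8), Vegfa to Kdr by −0.16 (exact permutation p = 0.2), Vegfc to Flt4 by 0.02 (exact permutation p = 0.9) and Pgf to Flt1 by 0.19 (exact permutation p = 0.5).

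Nrp2, the co-receptor for VEGF-C and class 3F semaphorin that is prominent on veins and lymphatic vessels, had 185, 173 and 168 CPM in the wild-type lungs and 114, 130 and 131 CPM in the knockout lungs. All knockout libraries lay well under the wild-type range, with a gap wider than the spread within either genotype. The means were 175 ± 8.49 and 125 ± 9.55 CPM (SD, n = 3), so Nrp2 fell by 28.7% in the fit, a log2 fold change of −0.49 ± 0.07 (SE, 95% interval −0.65 to −0.33, edgeR adjusted p = 0.0358). By p it ranked at place 26 of all genes tested. Its difference was −0.65 within the first title number and −0.37 within the second. DESeq2 gave an adjusted p of 3.53e-06, limma voom 0.0374 and edgeR with the title number as a term 0.00874. The call was lost on leaving out wild type 1, 2 or 3 or knockout 2 or 3 (adjusted p = 0.134, 0.116, 0.0968, 0.111 and 0.0675) and held without knockout 1 (0.0402). In those 6 refits the log2 fold change ran from −0.53 to −0.43, and the genes called over the whole table dropped to 3, 0, 0, 11, 27 and 41 in the order given, with 1357 to 2225 at an unadjusted p under 0.05. The Nrp2 gene (chr1:62703285-62818695, plus strand) overlaps Gm37121, a predicted gene on its strand with 188 reads in all, so some reads of the overlap may be assigned to neither or to the other gene.

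Nrp1, the related neuropilin that binds VEGF-A together with VEGFR2, had 249, 270 and 240 CPM against 221, 246 and 267 CPM. The genotypes overlapped almost wholly, with a log2 fold change of −0.05 ± 0.08 (SE, 95% interval −0.24 to 0.14, edgeR adjusted p = 0.883). The difference was −0.23 within the first title number and 0.09 within the second. The 2 neuropilins therefore stood in a different ratio: the log2 ratio of Nrp1 to Nrp2 was 0.43, 0.64 and 0.52 in wild-type and 0.95, 0.92 and 1.03 in knockout lungs. The difference of 0.44 separated all libraries, at the smallest exact permutation p that the design allows (0.1, two-sided; 0.375 adjusted over the 15 ratios). Against the pan-endothelial sum, Nrp1 differed by 0.14 (exact permutation p = 0.3).

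The ratios of Nrp2 to marker sums were added after its values were seen. Relative to pan-endothelial markers Nrp2 was lower by a log2 difference of −0.30, relative to lymphatic markers by −0.44 and relative to mesenchymal markers by −0.35, each with no overlap between genotypes (exact permutation p = 0.1 for each; 0.375 adjusted). In every pairing of a knockout with a wild-type library, Nrp2 was thus lower relative to each of these 3 sums. The lymphatic and mesenchymal sums themselves overlapped between genotypes (mesenchymal: 5026 to 5831 CPM in the wild-type and 4256 to 5688 CPM in the knockout lungs). Relative to the alveolar type 1 sum the difference was −0.07 (exact permutation p = 0.4) and the genotypes overlapped. With the mean of the markers' log2 levels it was 0.15 for alveolar type 1 and −0.33 for lymphatic markers. Nrp2 and the alveolar type 1 markers were lower in the same libraries, and the part of these cells in the Nrp2 difference was not tested.

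**Figure D4:**
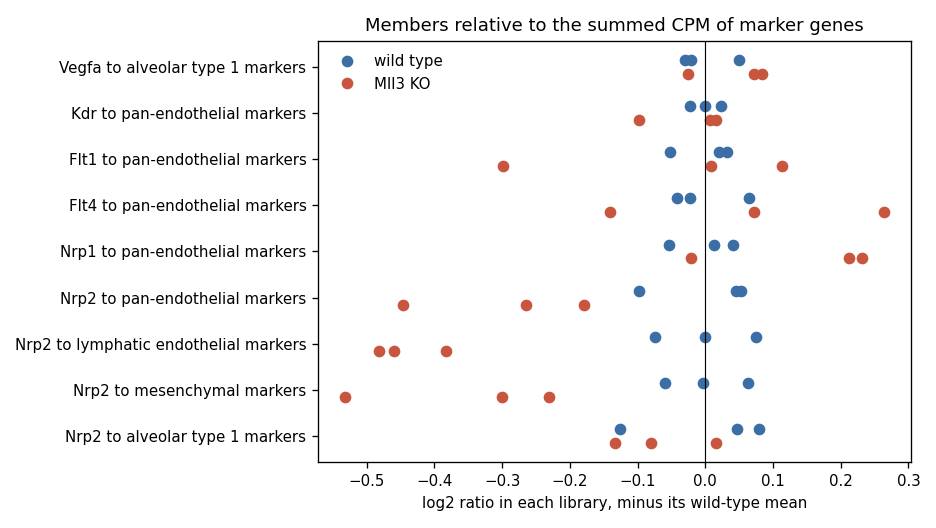
Log2 ratio of members to the summed CPM of marker genes in each library, shifted so that the wild-type mean is 0 (blue, wild type; red, Mll3 KO). Kdr and Vegfa overlap between genotypes, while Nrp2 lies lower in all knockout libraries relative to pan-endothelial, lymphatic and mesenchymal markers but not relative to alveolar type 1 markers.

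Of 39 tested markers of other cell types, 0 were called in edgeR. At an unadjusted p under 0.05, 5 were lower and 3 higher, against 6.02% of all genes tested lower. The share of all genes higher at that p was not counted. DESeq2 called 3 pan-epithelial, 1 leukocyte and 1 mesothelial marker lower and 1 pan-epithelial marker higher. It called 1.76% of all genes tested lower. The medians were 0.10 for 8 alveolar type 2 markers, −0.02 for 7 pan-epithelial, −0.06 for 7 mesenchymal, −0.10 for 6 erythroid and −0.12 for 5 mesothelial markers. The 6 leukocyte markers had a median of −0.26, and their sum was 884 to 1325 CPM in the wild-type and 483 to 676 CPM in the knockout lungs, without overlap. Most of that sum was Lyz2, a lysozyme gene that alveolar type 2 cells also express (961 against 502 CPM), while Csf1r had 45.1 against 43.6 CPM and Cd68 9.58 against 10.2 CPM. The sum of the mesothelial markers was also without overlap, at 463 to 570 against 301 to 406 CPM. There Msln had 364 against 197 CPM, whereas Upk3b (98.3 against 98.5 CPM), Wt1 (6.35 against 7.90 CPM), Upk1b and Lrrn4 overlapped between genotypes. Genes of these 2 lists were named after their values were seen, to show which of them carry the sums. The part of these cells in the levels of the members was not tested.

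The rest of the pathway was followed in 8 lists of 93 genes, of which 90 were tested. In edgeR 0 of them fell and 0 rose. At an unadjusted p under 0.05 there were 6 lower, against 6.02% of all genes tested, and 2 higher, for which no share of all genes was counted. DESeq2 called 1 (Sema3b, lower), where 1.76% of all genes tested were called lower. The median log2 fold change over the tested genes was −0.03, against 0.01 for all genes.

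Next to the ligands stand the proteins that free VEGF-C and VEGF-D from their precursors, 5 genes with a median of 0.04. Ccbe1, which brings the protease to VEGF-C, had 37.2 ± 2.37 CPM in the wild-type and 28.6 ± 4.87 CPM in the knockout libraries (adjusted p = 0.262; 0.0339 with the title number as a term). Adamts3, the protease itself, had 7.32 ± 0.92 against 9.73 ± 1.37 CPM (adjusted p = 0.358), and the proprotein convertase gene Pcsk5 59.0 against 64.6 CPM. Semaphorins share the neuropilins, and plexins are their signalling partners: these 12 genes had a median of −0.05. Sema3b had 41.1 ± 3.24 against 32.2 ± 2.24 CPM (edgeR adjusted p = 0.158; DESeq2 0.0495), the plexin gene Plxna3 21.1 against 25.8 CPM and Sema3c 75.3 against 58.6 CPM. Nrp2 was thus the only neuropilin or class 3 semaphorin gene called in the main edgeR fit.

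Vegfa is a target of the oxygen-sensing pathway, whose 9 genes had a median of −0.04. Egln1, a prolyl hydroxylase that marks hypoxia-inducible factors for destruction, had 115 ± 2.28 against 99.0 ± 0.70 CPM but missed the threshold (edgeR adjusted p = 0.154). Epas1, encoding the factor HIF-2α, had 387 against 330 CPM (adjusted p = 0.554), and Egln2 66.6 against 71.0 CPM. Of these 9 genes, Egln1 and Epas1 had every knockout library below every wild-type library, as did 8.45% of all genes tested. Behind the receptors, 20 tested genes of the signal relay had a median of −0.03 and 0 at an unadjusted p under 0.05. Nos3, endothelial nitric oxide synthase, had 28.9 against 33.2 CPM, Plcg1, a phospholipase bound by VEGFR2, 187 against 204 CPM and Prkca 86.2 against 78.2 CPM. The 14 genes of receptor trafficking and phosphatases had a median of −0.06, with Epn2, an endocytic adaptor, at 86.4 against 77.0 CPM, Dab2 at 83.5 against 75.2 CPM and Cdh5, VE-cadherin, at 670 against 572 CPM.

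Genes that VEGF induces in endothelium, 15 in all, had a median of 0.05. Apln, the ligand apelin, had 58.7 against 47.2 CPM (adjusted p = 0.439), Dll4, a Notch ligand, 39.8 against 45.8 CPM and Kcne3 0.994 against 0.575 CPM. The 4 tested angiopoietin and TIE genes had a median of −0.05, with Tek at 114 against 122 CPM. Angpt2 stood at 9.28 against 8.37 CPM and Angpt1 at 72.7 against 67.5 CPM. The 12 tested endothelial transcription factors had a median of −0.08, with Gata2 at 37.7 against 32.2 CPM, Klf4 at 66.5 against 61.3 CPM and Ets1 at 362 against 332 CPM. None of these values passed the test in edgeR.

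**Figure D5:**
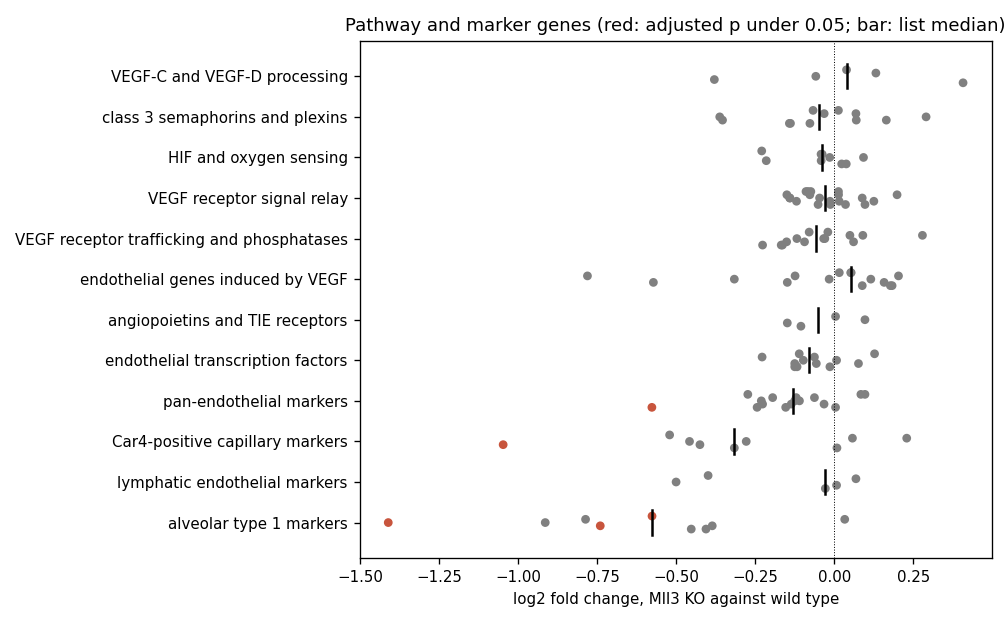
Log2 fold change (Mll3 KO against wild type) of each tested gene of the 8 pathway lists and 4 marker lists; black bars are list medians and red points have an adjusted p under 0.05. The pathway lists centre between −0.08 and 0.05 with no red point, while the alveolar type 1 markers centre at −0.58 with 3.

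The genes whose level over the 6 libraries ran closest to that of Vegfa, by the root mean square distance of centred log2 CPM among 11303 genes of at least 10 CPM, were Gstk1 (distance 0.028), Shroom3 (0.033) and Fam189a2 (0.035). Gstk1 had 36.4 ± 1.53 CPM in the wild-type and 28.6 ± 3.84 CPM in the knockout lungs, with the same tight wild-type and spread knockout libraries as Vegfa. The closest to Kdr were Sptan1 (0.017), Arhgap45 (0.023) and Myadm (0.024). Sptan1, a spectrin gene, had 829 ± 47.3 against 718 ± 23.3 CPM. None of these 6 genes passed the test between genotypes in edgeR. They were picked for likeness to Vegfa or Kdr in these same libraries, and neither Vegfa nor Kdr passed it. Their pattern and test result thus follow largely from the choice.

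The positions of the other members in mm10 are as follows. Vegfa lies at chr17:46016993-46032369 and Vegfb at chr19:6982473-6987651, both on the minus strand. Vegfc lies at chr8:54077606-54187096 and Vegfd at chrX:164373378-164402650, both on the plus strand, and Pgf at chr12:85166635-85177790 on the minus strand. Kdr (chr5:75932827-75978458) and Flt1 (chr5:147561604-147726011) are both on the minus strand of chromosome 5, far apart. Flt4 lies at chr11:49609263-49652739 and Nrp1 at chr8:128358604-128503363, both on the plus strand.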

How the data were processed

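Per the labels' protocols, poly(A)-selected RNA gave strand-specific libraries, sequenced as 75 bp single reads; per the submitters' processing notes, bcl2fastq 2.19.1, GSNAP, featureCounts 1.6.3 and DESeq2 1.24.0 were used on mm10. Raw counts per gene make up the first deposited table, from featureCounts with strand setting 2, mapping quality of at least 1 and Ensembl release 98, per the file headers. The second deposited table is a normalized signal, counts divided by a size factor per library and rounded by the authors to 1 decimal, and 100% of its genes gave back the counts within 0.1 read. It supplied symbols and 1 alternative.

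Spike-in rows (92, with 1 read in all) were left out. Of 34615 genes with a read, filterByExpr kept 19042, and in every library these held at least 99.79% of the reads. Genotypes (3 libraries each, by the genotype label, replicates numbered in sample order) were compared with edgeR 4.0.16 in R 4.3.3 (TMM scaling, robust quasi-likelihood test, a model of genotype alone), and p-values were adjusted by Benjamini-Hochberg over all genes tested and a threshold of 0.05. The SE is the absolute log2 fold change over the square root of F. Ratios within libraries were compared with a two-sided exact permutation test. Alternatives used DESeq2 1.42.0, limma 3.58.1, other scaling and filters, the title number as a term and each library left out. The main edgeR fit was tested on simulated data. The within-number differences and the ratios of Nrp2 to markers were added after seeing the data. Members and lists were chosen with earlier results of these data known. Besides the members, the text names up to 3 genes of lowest unadjusted p in a list described, the 3 genes closest to Vegfa and to Kdr, and Kmt2c, Xist and Y-linked genes as checks. Ccl21a, Mmrn1 and Etv2 were named for their low counts. Some further markers were named after their values were seen, as stated beside them.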

Additional observations from a re-analysis of the deposited data

How the results depend on the processing

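The log2 fold change of Vegfa, Kdr, Flt1, Flt4 and Nrp2 was negative in all 14 refits and that of Vegfb positive. Vegfa ran from −0.47 to −0.29 and passed the threshold in 3, and Nrp2 ran from −0.53 to −0.43 and passed in 9. Members past the threshold numbered 1 in the main fit, 2 with no filter on low counts, 2 with the title number as a term and 2 with DESeq2, and 0 to 1 on leaving out each library. All genes past the threshold numbered 70, against 443 with no filter, 625 with the title number, 349 with DESeq2 and 0 to 41 on leaving out each library; the cause was not tested. Other genes of the pathway past it numbered 0, against 2 with no filter (Ccbe1 and Sema3b), 1 with the title number (Ccbe1) and 1 with DESeq2 (Sema3b). Small values changed sign: Pgf was 0.0076 with the title number as a term, and on leaving out each library Pgf ran from −0.14 to 0.054, Vegfc from −0.24 to 0.012, Vegfd from −0.12 to 0.023 and Nrp1 from −0.12 to 0.015. The family's median stayed negative, from −0.17 to −0.09. The labels number no replicates, and the title number, which both genotypes share, was the only block fitted. No term was fitted for the Xist and Y-linked reads that set knockout 3 apart from all wild-type libraries. Pgf had the fewest reads of the members, 53 to 78 per library.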
